A study of Mus musculus with 12 samples.

Results

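The cytosolic ribosomal proteins were taken as the protein-coding genes whose symbols follow the *Rpl* and *Rps* pattern, together with *Rpsa* and *Rplp0* to *Rplp2* and without the *Rps6k* kinases. This name rule found 87 of the 55401 genes in the count table. Among them were 31 proteins of the small (40S) subunit, 43 of the large (60S) subunit and the 3 proteins of the large subunit's stalk. A further 7 were classed as paralogs of a subunit gene, a retroposed copy among them (*Rpl3l*, *Rpl10l*, *Rpl22l1*, *Rpl36al*, *Rpl39l*, *Rps27l* and *Rps27rt*). The last 3, *Rpl7l1*, *Rps19bp1* and *Rps23rg1*, carry a matching name without being listed here as a subunit. The rule leaves out, for example, *Fau* and *Rack1*, which also encode ribosomal components. No measured value entered the choice.

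RNA was sequenced from satellite cells, the muscle stem cells, of adult mice that all carried floxed *Cxcr4* (*Cxcr4* FL/FL) and the Pax7-ZsGreen reporter. *Cxcr4* KO mice also carried Pax7-creERT2, a cre active in *Pax7*-expressing cells only after tamoxifen, and *Cxcr4* WT mice had no cre. All mice of both genotypes were given 80 mg/kg tamoxifen on 5 days and then tamoxifen chow. Cells sorted for ZsGreen from both hind limbs were used directly (quiescent, 4 WT and 4 KO libraries) or after overnight culture (activated, 2 WT and 2 KO libraries). The methods count samples as independent mice in general, but no source used here ties each library to its own mouse, so the p-values measure the spread between libraries. In bulk RNA, fewer cells of a type and less RNA per cell cannot be told apart.

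A ribosome is built from ribosomal RNA and about equal molar amounts of its proteins, and most of these proteins are encoded by a single active gene with many inactive processed pseudogenes. Their mRNAs are among the most abundant of any cell and carry a run of pyrimidines at the cap, the 5′ terminal oligopyrimidine (TOP) motif. Through this motif the kinase complex mTORC1 and the RNA-binding protein LARP1 set how much of each mRNA is translated. Quiescent satellite cells are known for a low rate of protein synthesis, which rises when they are activated.

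Reads counted on genes numbered 12775593 to 23717013 in the quiescent libraries and 3172164 to 5427280 in the activated libraries. A gene holding ribosomal RNA sequence, CT010467.1, took at most 0.807% of the counts in quiescent libraries and 11.5% to 40.3% in activated ones. *Cxcr4* fell in quiescent KO cells by 2.24 on the log2 scale (edgeR quasi-likelihood test, adjusted p = 0.00477), and in activated KO cells its log2 fold change of -1.35 had an adjusted p of 0.381. Activated libraries had higher levels of all 10 muscle fibre genes of a fixed list and lower levels of 7 (WT) and 8 (KO) of 9 satellite cell genes. Over all genes tested, 11.5% were higher and 18.3% lower in WT, and 13.3% higher and 20.4% lower in KO cells. In activated libraries *Xist* was high and *Eif2s3y* and *Uty* were at 0, whereas quiescent libraries had Y-linked transcripts in both genotypes, so state and sex of the mice cannot be told apart in any comparison of states.

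The 87 genes together took 3.31%, 3.73%, 4.39% and 4.16% of all counts in the 4 quiescent WT libraries, and 3.85%, 5.10%, 3.64% and 3.69% in the 4 quiescent KO libraries. In activated cells they took 4.15% and 2.84% of the counts in WT and 5.21% and 3.39% in KO. Groups overlapped in all of these shares. The lowest share, 2.84%, belonged to the activated WT library with 40.3% of its counts on the ribosomal RNA gene. With that gene and the mitochondrial genes left out of the totals, the shares were 4.09% ± 0.502 (SD, n = 4) and 4.29% ± 0.831 (SD, n = 4) in quiescent WT and KO cells. In activated WT and KO cells they were 5.20% ± 0.158 (SD, n = 2) and 5.87% ± 0.856 (SD, n = 2). On these totals the states did not overlap in WT cells, at 3.45% to 4.62% before and 5.08% and 5.31% after culture. They did in KO cells, at 3.80% to 5.53% before and 5.27% and 6.48% after culture.

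Levels per length were compared as CPM (each library's counts relative to its total, scaled between libraries by edgeR's TMM method) per kilobase of annotated exon. *Rplp1*, whose product recruits elongation factors at the ribosomal stalk, was the highest of the 87 genes in quiescent WT cells at 1992 ± 380 per kilobase (SD, n = 4). It was followed by the large subunit genes *Rpl36* (1333 ± 308) and *Rpl8* (1157 ± 271), the small subunit gene *Rps15* (979 ± 231) and the large subunit gene *Rpl4* (903 ± 188). The lowest subunit gene was *Rpl23a*, at 5.91 ± 1.45, and the highest and lowest subunits were 337-fold apart. Between neighbours in this order the library ranges overlapped in all 76 pairs of the 77 subunits, so the order is resolved only over longer distances. Across these subunits the order in quiescent WT cells had a Spearman rho of 0.999 with quiescent KO cells and 0.94 with activated cells of either genotype. The genes share libraries and exon lengths in each correlation.

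**Figure D1:**
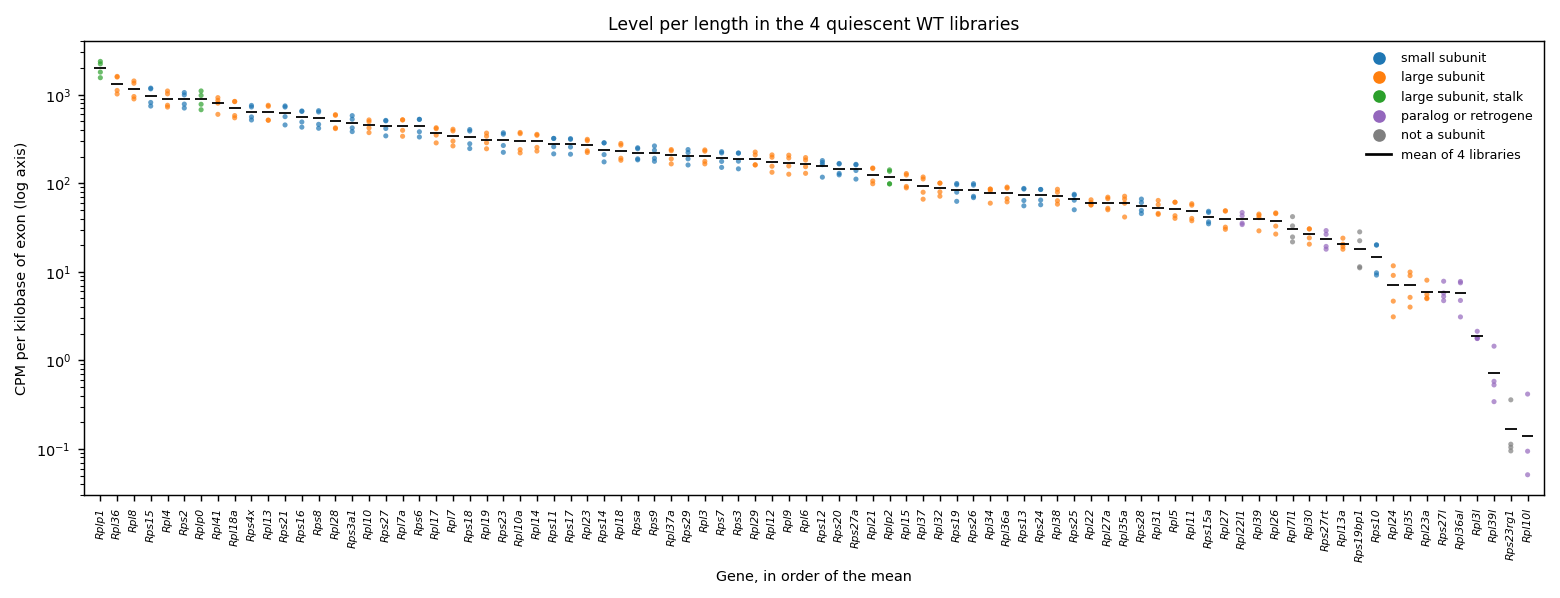
Level per length of 86 of the 87 genes in the 4 quiescent WT libraries, as CPM per kilobase of exon on a log axis. Points are libraries coloured by role, bars are means, and libraries at 0 are not drawn. *Rplp1* leads, most subunits form a gradual slope, and the paralogs other than *Rpl22l1* and *Rps27rt* lie at the low end.

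Paralogs were among the lowest levels per length. *Rpl36al*, an intronless copy of *Rpl36a*, had 5.78 ± 2.26 CPM per kilobase (SD, n = 4) in quiescent WT cells, and *Rpl3l*, the striated muscle paralog of *Rpl3*, had 1.87 ± 0.174. *Rpl39l* and *Rpl10l*, best known from the male germ line, had 0.723 and 0.140 as means of the 4 libraries. *Rpl10l* was counted with 0 to 8 reads per library and was the only 1 of the 87 genes removed by the filter on low counts, so 86 were tested among 25771 genes. *Rps23rg1* passed the filter at under 1 CPM in every library.

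Near-identical copies bear on how reads of these genes could be assigned. A search of annotated transcripts found 1097 processed pseudogenes with at least 90% identity to 82 of the 87 genes, and 248 copies with at least 98% identity to 68 of them. Among subunits, the 65 with a copy of at least 98% had a median of 174 CPM per kilobase in quiescent WT cells, and the other 12 had a median of 265. The treatment of reads that map to several places is not given in the sources used here. Counts on these pseudogenes made up 2.18% to 3.25% of the counts on members and copies together in quiescent libraries, 4.59% and 5.82% in activated WT, and 5.01% and 9.46% in activated KO libraries. For *Rpl23a*, 70.6% of the reads on the gene and its copies lay on the copies in quiescent WT cells, and for *Rpl24* this share was 48.1% in quiescent and 94.8% in activated WT cells.

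The start sites of 67 of the 87 genes matched RefSeq entries on GRCm38.p6. In the 30 bases centred on the start, CTTTC was found on the gene's strand in 28.4% of these 67 genes and in 4.76% of all 27025 genes of the table, and CTTCC in 19.4% against 7.83%. A run of at least 8 C or T bases there was present in 41.8% of the 67 genes and 13.9% of all genes. Over the 300-base window around the start, CCGGAAG on either strand was found in 38.8% against 9.93%, the extended YY1 motif on either strand in 0% against 0.755%, and TATAAA on the gene's strand in 8.96% against 9.77%. CTTTC and CTTCC can overlap within a longer pyrimidine run. The windows that follow are those of 2 genes with long runs, then of the members with the largest rises and falls on activation in both genotypes that have an entry (*Rpl7* has none). Where a gene has several starts, the window with the longest run is shown. Capitals mark the longest pyrimidine run and position 16 is the annotated start.
*Rpl7a* (chr2:26910792-26910821, + strand): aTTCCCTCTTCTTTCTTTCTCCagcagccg
*Rpl27a* (chr7:109519180-109519209, + strand): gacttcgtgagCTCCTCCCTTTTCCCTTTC
*Rpl3l* (chr17:24727811-24727840, + strand): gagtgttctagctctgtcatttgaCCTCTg
*Rps19bp1* (chr15:80264292-80264321, - strand): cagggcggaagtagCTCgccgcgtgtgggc
*Rps2* (chr17:24720048-24720077, + strand): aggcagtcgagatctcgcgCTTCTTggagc
*Rps27l* (chr9:66946071-66946100, + strand): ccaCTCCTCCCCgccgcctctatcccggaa
*Rpl13a* (chr7:45128731-45128760, - strand): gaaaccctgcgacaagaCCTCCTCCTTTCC
*Rps4x* (chrX:102189377-102189406, - strand): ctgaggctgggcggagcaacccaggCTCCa
*Rpl35a* (chr16:33056467-33056496, + strand): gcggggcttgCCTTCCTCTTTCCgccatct
*Rpl10* (chrX:74270801-74270830, + strand): gttgttacagtggaagataggccgCCTata
*Rpl9* (chr5:65391417-65391446, - strand): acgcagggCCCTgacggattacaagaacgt
The run was 21 and 19 bases long in *Rpl7a* and *Rpl27a*. Among members that rose it was 13 bases in *Rpl13a*, 9 in *Rps27l*, 6 in *Rps2*, 5 in *Rpl3l* and 3 in *Rps19bp1*. Among members that fell it was 13 bases in *Rpl35a*, 4 in *Rps4x* and *Rpl9* and 3 in *Rpl10*. In *Rpl27a* and *Rpl13a* the run reached the end of the window. The run could lie anywhere in the window and was not tied to the cap. Its length therefore does not show whether an mRNA carries the TOP motif.

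In quiescent cells no ribosomal protein gene passed the test between *Cxcr4* KO and WT. Of the 86 genes tested, 0 passed an adjusted p of 0.05 in edgeR's quasi-likelihood test, against 0.0155% of all genes tested (0.00776% higher and 0.00776% lower), and 0 had an unadjusted p under 0.05, against 1.74% of all genes. Of the 1541 genes with an average of at least 100 CPM, 0 were called and 6 had an unadjusted p under 0.05. DESeq2 on all libraries and on the quiescent libraries alone also called 0 members. The median log2 fold change was 0.03, beside 0.02 for all genes, and WT and KO libraries overlapped for every 1 of the 86 genes (they did not for 1.7% of all genes tested). The median half-width of the 95% interval was 0.45 on the log2 scale. In 82 of the 86 genes the interval of the difference lay within a 2-fold change either way, and in 48 it lay within 0.5 on the log2 scale. The genes with wider intervals were *Rpl35*, *Rps27rt*, *Rpl39l* and *Rps23rg1*. Of the 1541 genes with an average of at least 100 CPM, 1486 had an interval within a 2-fold change and 514 within 0.5.

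Over the 77 subunits the quiescent log2 fold changes of KO against WT ran from -0.17 to 0.47, highest in *Rpl35*. Members of a fixed set are given as examples. *Rps6*, the subunit phosphorylated by the S6 kinases below mTORC1, had 528, 605, 837 and 834 CPM in WT and 686, 851, 610 and 736 CPM in KO libraries. Its log2 fold change was 0.04 (95% interval -0.41 to 0.49). *Rplp0*, the base of the stalk, had 1123, 1294, 1628 and 1831 CPM in WT and 1188, 1624, 1387 and 1714 CPM in KO libraries, with a log2 fold change of 0.01 (-0.46 to 0.48). In both genes the groups interleaved. *Rpl5*, a partner of 5S rRNA, had a log2 fold change of 0.14 (-0.29 to 0.58). *Rps19*, the subunit most often mutated in Diamond-Blackfan anaemia, had 0.08 (-0.39 to 0.54), and *Rpl38*, a subunit needed for the translation of certain *Hox* mRNAs, had 0.11 (-0.32 to 0.54).

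Library medians of the members varied within each quiescent group. The median deviation of the 86 genes from their own means over the 12 libraries was -0.30 and -0.13 on the log2 scale in WT libraries 1 and 2, and 0.29 and 0.30 in WT libraries 3 and 4. In the KO libraries it was -0.06, 0.33, -0.06 and 0.17. The range over WT libraries was wider than the median difference between genotypes.

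**Figure D2:**
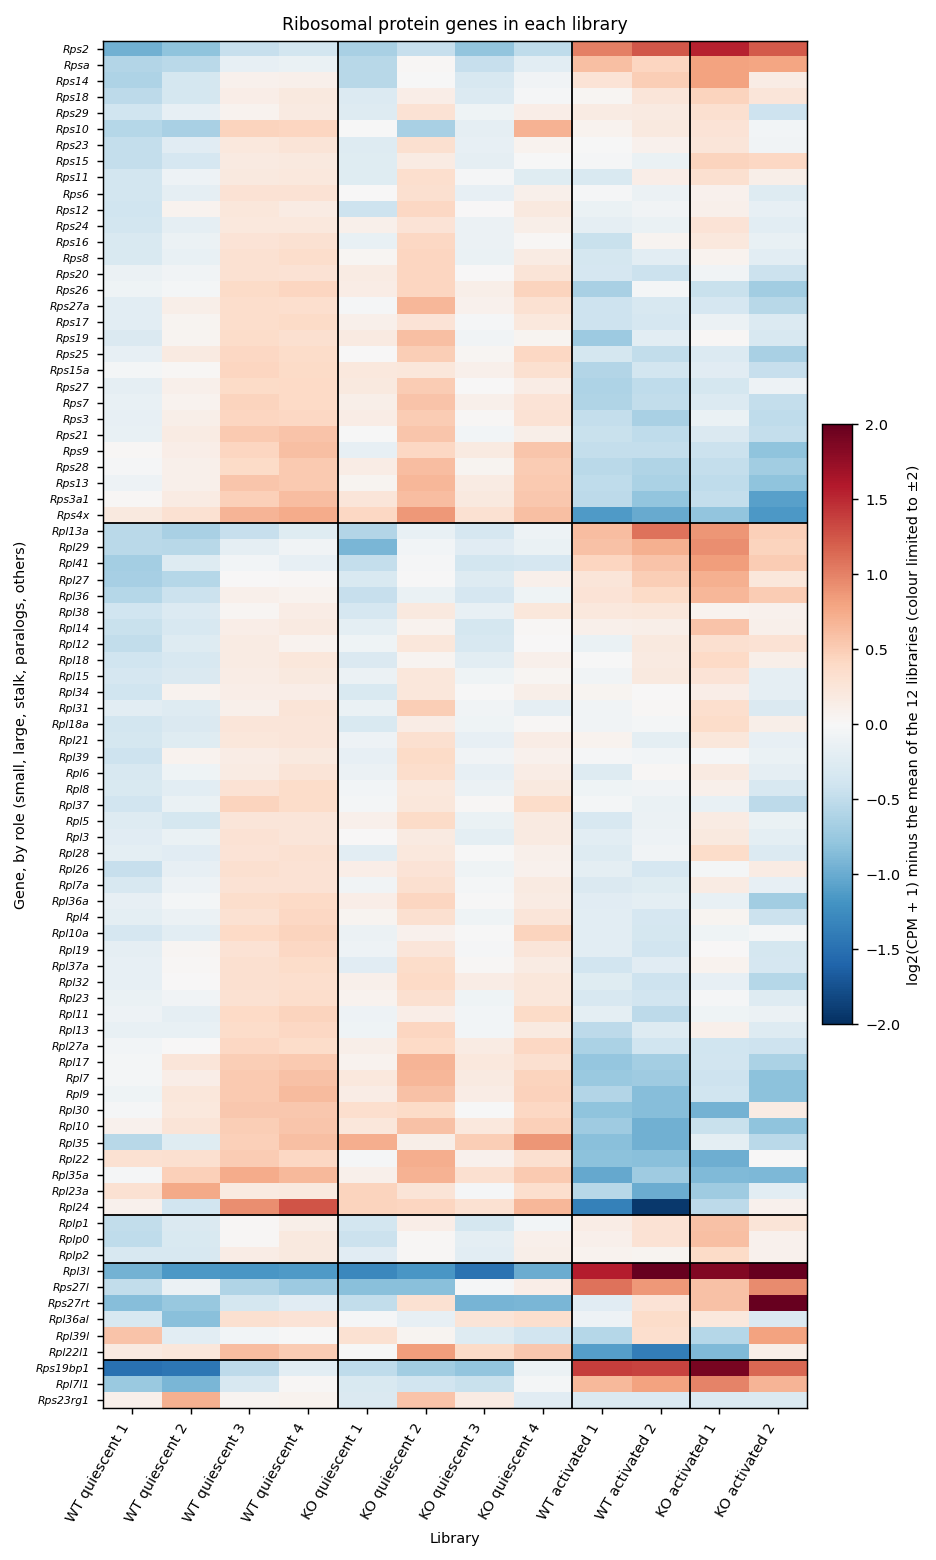
Levels of 85 of the 86 tested genes in each library, as log2(CPM + 1) minus that gene's mean over the 12 libraries, with colours limited to 2 either way. Rows are grouped by role and ordered by the activation change in WT, and columns are libraries. *Rps2*, *Rpl3l* and *Rps19bp1* are high in the 4 activated libraries, *Rps4x* and *Rpl35a* are low there, and quiescent libraries differ from one another over many rows.

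A pseudogene of a ribosomal protein gene did differ between genotypes. *Gm10036* is a processed pseudogene 99.3% identical to *Rpl11*, which encodes the other large subunit protein that binds 5S rRNA. *Gm10036* had 58, 40, 65 and 71 counts in quiescent WT libraries and 359, 705, 517 and 505 counts in quiescent KO libraries. Every KO library lay above every WT library, and the mean level was 28.1 ± 13.6 CPM in KO cells (SD, n = 4), beside 3.03 ± 0.271 CPM in the 4 WT libraries. The log2 fold change was 3.20 (SE 0.31, adjusted p = 4.92e-05 by edgeR), the only call among 478 pseudogene copies tested in this comparison. Over all genes tested, 0.0155% were called. *Rpl11* itself had 108, 102, 153 and 158 CPM in WT and 108, 127, 111 and 152 CPM in KO libraries. These groups interleaved, and its log2 fold change was -0.06 (95% interval -0.50 to 0.37). After activation *Gm10036* had 62.9 and 102 CPM in WT and 161 and 102 CPM in KO libraries (log2 fold change 0.68, adjusted p = 0.684 by edgeR), and the difference between the genotype effects of the states had an adjusted p of 0.134. That difference passed under 4 of 21 alternatives, among them without activated KO library 1 (adjusted p = 0.0477).

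In activated cells, 0 of the 86 genes passed the adjusted p of 0.05 between KO and WT (0.0504% of all genes tested did, 0.031% higher and 0.0194% lower). At an unadjusted p under 0.05, which 8.37% of all genes met, there were 3, namely *Rps27rt*, *Rpl24* and *Rpl22l1*. Of the 1541 genes with an average of at least 100 CPM, 0 were called and 102 had an unadjusted p under 0.05. The median log2 fold change of KO against WT was 0.15, beside 0.00 for all genes, but without KO library 1 it was -0.05. Both KO libraries lay above both WT libraries in 22 genes and below them in 2, 24 in all, and groups of this size failed to overlap for 24.7% of all genes tested. With 2 libraries a group, the median half-width of the 95% interval was 0.63, and the interval lay within a 2-fold change in 72 of the 86 genes. The difference between the genotype effects of the states had a median of 0.16 and was called for 0 genes (0% of all genes tested), with 2 genes at an unadjusted p under 0.05, against 6.59% of all genes.

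**Figure D3:**
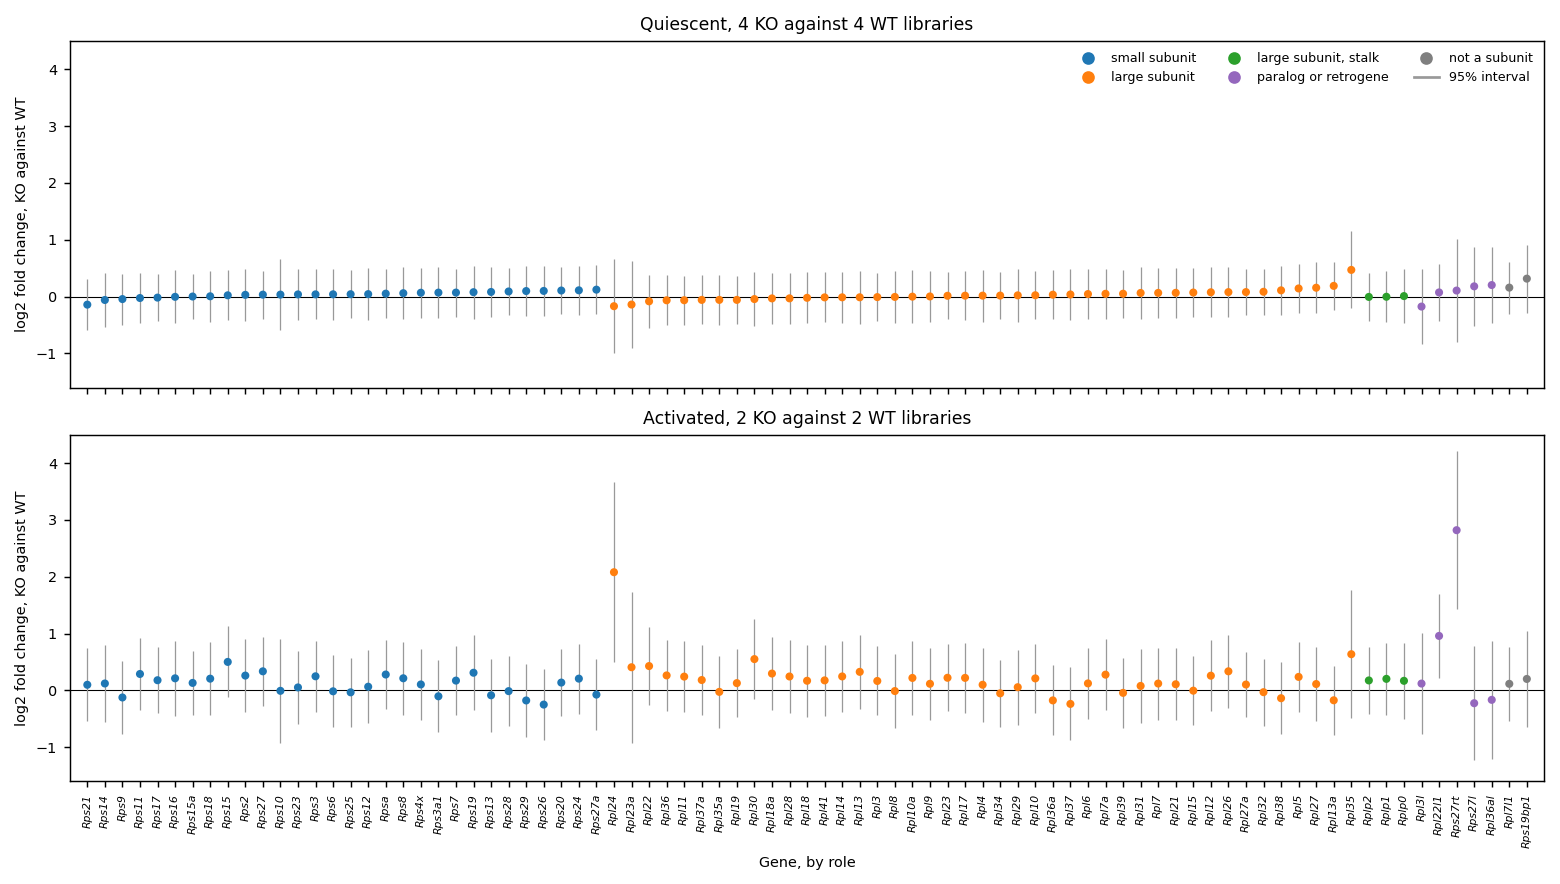
Log2 fold change of KO against WT for 76 of the 77 subunit genes and 7 of the other members, in quiescent cells (top) and activated cells (bottom), with 95% intervals and colours by role. Most quiescent values lie near 0, with intervals mostly within a 2-fold change either way. Activated intervals are wider, and *Rps27rt*, *Rpl24* and *Rpl22l1* stand highest.

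The largest genotype value in activated cells rested on a single library. *Rps27rt* is a retroposed copy of *Rps27*, a small subunit gene with a zinc finger protein. Their coding sequences in GENCODE release M21 are identical over all 255 bases, and 341 of the 345 bases of the *Rps27* transcript align to *Rps27rt* without a difference. *Rps27l*, the paralog known as a p53 target, differs at 61 of the 255 positions, with no identical stretch over 11 bases. The coding sequences are printed to show how far reads could tell these genes apart, and capitals in *Rps27l* mark the bases that differ from *Rps27*.
*Rps27* and *Rps27rt*: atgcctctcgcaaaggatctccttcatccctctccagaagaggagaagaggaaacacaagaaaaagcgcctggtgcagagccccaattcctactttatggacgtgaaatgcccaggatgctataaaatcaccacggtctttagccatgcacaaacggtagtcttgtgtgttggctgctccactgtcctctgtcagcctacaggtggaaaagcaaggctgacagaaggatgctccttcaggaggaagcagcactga
*Rps27l*: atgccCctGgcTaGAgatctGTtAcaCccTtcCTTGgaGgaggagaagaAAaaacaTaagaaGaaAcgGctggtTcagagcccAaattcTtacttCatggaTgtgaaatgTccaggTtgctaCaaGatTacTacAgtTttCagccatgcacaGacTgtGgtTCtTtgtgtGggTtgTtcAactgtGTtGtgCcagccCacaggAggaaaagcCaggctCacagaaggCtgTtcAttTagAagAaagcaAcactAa
*Rps27* is on GRCm38 chromosome 3 from 90212522 to 90213651 (- strand), *Rps27rt* on chromosome 9 from 114982366 to 114982739 (- strand), and *Rps27l* on chromosome 9 from 66946086 to 66949516 (+ strand).

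*Rps27rt* had 67 and 36 counts in activated WT libraries and 77 and 724 counts in activated KO libraries. KO library 2 stood far above the other 3. The log2 fold change of KO against WT was 2.82 (SE 0.67, adjusted p = 0.137 by edgeR), and without KO library 2 it was 0.53. It passed under DESeq2 on all libraries (adjusted p = 0.0111), without a filter on low counts, and without KO library 1 (log2 fold change 3.64). *Rps27* had 265 and 286 CPM in WT and 318 and 377 CPM in KO libraries, so *Rps27rt* took 30.5% of the counts on both genes in KO library 2, 3.97% to 5.86% in the other activated libraries and 1.40% to 2.71% in quiescent libraries. The same library had the highest share of counts on pseudogene copies (9.46%). Some copies of other members were also high there. *Rps19-ps6* was at 308 CPM against 15.5 to 23.6 CPM in the other activated libraries. *Gm8730*, a copy of *Rplp0*, was at 299 CPM against 43.3 to 74.5 CPM. Other abundant copies were not, such as *Gm10736*, a copy of *Rpl41*, at 75.7 CPM against 77.9 to 125 CPM. Whether the high values share a source was not tested.

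*Rpl22l1* and *Rpl24* also rested on few libraries or reads. *Rpl22l1*, the paralog that *Rpl22* represses, had 27.5 and 22.3 CPM in activated WT and 32.1 and 65.3 CPM in activated KO libraries (log2 fold change 0.96, SE 0.35, adjusted p = 0.436 by edgeR). Without KO library 2 its fold change was 0.30. *Rpl22* had 74.8 and 74.0 CPM in WT and 67.0 and 133 CPM in KO libraries, and KO library 2 was again the high 1. *Rpl24* had only 7 and 1 counts in WT and 11 and 21 counts in KO libraries.

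After overnight culture single ribosomal protein genes passed the test in both directions. In WT cells 31 of the 86 genes passed the test (9 higher, 22 lower), against 29.8% of all genes tested (11.5% higher, 18.3% lower). In KO cells 27 passed (12 higher, 15 lower), against 33.7% of all genes (13.3% higher, 20.4% lower). At an unadjusted p under 0.05 there were 36 in WT and 37 in KO cells, against 42.1% and 45.3% of all genes. Among the 1541 genes with an average of at least 100 CPM, 55% passed in WT (13.6% higher, 41.5% lower) and 57.6% in KO cells (14.9% higher, 42.7% lower). The median log2 fold change of the members was -0.27 in WT and -0.15 in KO cells, beside -0.92 and -0.96 for all genes tested and -0.52 and -0.54 for the 1541 high genes. Libraries of the states did not overlap for 51 genes in WT and 47 in KO cells, against 56% and 54.4% of all genes. Leaving out an activated library lowered the count to 14 (without library 1) or 12 (without library 2) in WT and to 13 or 14 in KO cells, and with pseudogene counts added to each member it was 24 (9 higher, 15 lower) and 25 (15 higher, 10 lower).

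There were 21 genes called in both (9 higher, 12 lower) and 0 called in opposite directions, which is 67.7% of the WT calls and 77.8% of the KO calls. Genes called in both made up 24.4% of the members and 23.5% of all genes tested, and 78.8% of all WT calls and 69.6% of all KO calls. The 10 genes called in WT alone and the 6 called in KO alone had the same sign in the other genotype. Across the 86 genes the fold changes of WT and KO had a Pearson r of 0.91 and a Spearman rho of 0.92, from libraries that the comparisons do not share but with the same gene lengths and depth difference.

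**Figure D4:**
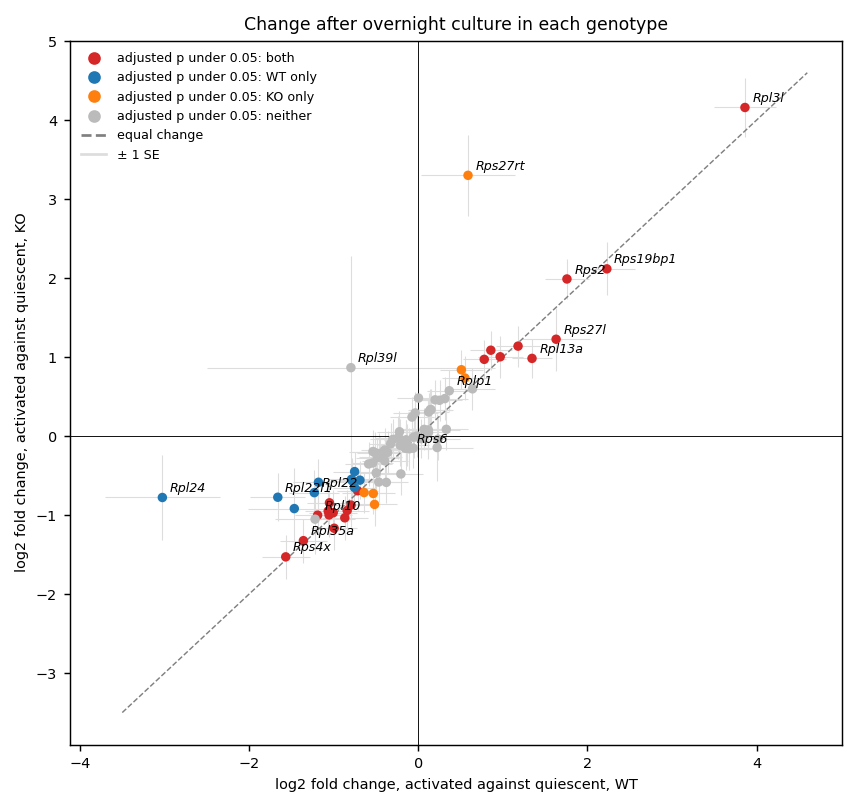
Log2 fold change of activated against quiescent cells in WT (horizontal) and KO (vertical) for 85 members, all tested genes but *Rps23rg1*, with 1 SE either way and colours for the calls. Most genes lie along the line of equal change. *Rpl3l* is highest in both genotypes, and *Rps27rt* and *Rpl24* lie farthest from the line.

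Of the small subunit genes, *Rps2* rose most. *Rps2*, a protein near the mRNA entry site, had 1294, 1434, 1821 and 1938 CPM in quiescent WT libraries and 5062 and 5912 CPM in activated WT libraries. In KO cells it had 1607, 1819, 1445 and 1757 CPM before and 7287 and 5869 CPM after culture. Every activated library lay above every quiescent library. The log2 fold change was 1.76 (SE 0.26, adjusted p = 3.07e-05) in WT and 1.99 (SE 0.26, adjusted p = 6.93e-06) in KO cells by edgeR. *Rps2* made up 4.00% to 4.64% of all member counts in quiescent libraries and 13.8% to 15.2% in activated libraries.

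The balance of the subunits turned on this gene. The summed CPM of the small subunit genes was 0.68 ± 0.010 (SD, n = 4) and 0.69 ± 0.024 (SD, n = 4) of that of the large subunit and stalk genes in quiescent WT and KO cells, and 0.80 ± 0.016 (SD, n = 2) and 0.82 ± 0.021 (SD, n = 2) in activated cells. Without *Rps2* the ratio was 0.597 to 0.647 in quiescent libraries and 0.528 to 0.553 in activated libraries, so the direction turned. These ratios were chosen after the values of *Rps2* were seen and carry no test.

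*Rpsa*, the 40S protein also known as the laminin receptor, followed *Rps2* in direction. It had 582, 599, 778 and 798 CPM in quiescent and 1323 and 1175 CPM in activated WT libraries (log2 fold change 0.86, SE 0.25), and its fold change in KO cells was 1.09 (SE 0.25). Both passed edgeR's test (adjusted p = 0.0132 and 0.00206). The rise in WT cells did not pass without activated WT library 1 (0.85, adjusted p = 0.0916). *Rps14* passed, upward, in KO cells and not in WT cells, and in KO cells it did not pass without activated library 1. For *Rps14* the difference between the genotypes had an adjusted p of 1 by edgeR. In all, 11 of the 31 small subunit genes fell in WT and 9 in KO cells, against 2 and 3 that rose. Of all genes tested, 18.3% and 20.4% fell and 11.5% and 13.3% rose. Among the 1541 genes with an average of at least 100 CPM, 41.5% and 42.7% fell and 13.6% and 14.9% rose.

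*Rps4x*, the X-linked S4 protein, fell most among the subunits called in both genotypes. It had 846, 916, 1186 and 1235 CPM in quiescent WT and 338 and 368 CPM in activated WT libraries. In KO cells it had 987, 1357, 917 and 1123 CPM before and 427 and 333 CPM after culture, and the states did not overlap in either genotype. The log2 fold change was -1.57 (SE 0.28, adjusted p = 0.000275) in WT and -1.53 (SE 0.28, adjusted p = 0.000306) in KO cells by edgeR. *Rps3a1*, *Rps13*, *Rps28* and *Rps9* were also lower in both genotypes, with log2 fold changes between -1.17 and -0.79. In WT cells these falls did not pass without activated library 2. *Rps6* did not pass, at -0.11 (SE 0.26) and -0.16 (SE 0.26). *Rps19* did not pass either, at -0.59 (SE 0.28) in WT and -0.35 (SE 0.28) in KO cells.

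The 3 other X-linked members had smaller changes than *Rps4x*. *Rpl10*, a late-joining subunit near the peptidyl transferase centre, fell from 766, 865, 1018 and 1066 CPM to 443 and 371 CPM in WT cells (log2 fold change -1.19, SE 0.26), and by 1.00 in KO cells. Without library 2 of the activated group it did not pass in WT (adjusted p = 0.0704 by edgeR) or KO cells (0.144). *Rpl36a* had log2 fold changes of -0.38 and -0.59 and *Rpl39*, at the exit tunnel, had -0.06 and -0.15, and none of these 4 values passed. In quiescent cells none of the X-linked members passed the test between genotypes (log2 fold changes of 0.02 to 0.07).

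Of the 43 large subunit genes other than the stalk, 3 rose and 10 fell in WT and 4 rose and 6 fell in KO cells. Over all genes tested, 11.5% rose and 18.3% fell in WT, and 13.3% rose and 20.4% fell in KO cells. For the 1541 genes with an average of at least 100 CPM the shares were 13.6% and 41.5% in WT and 14.9% and 42.7% in KO cells. *Rpl35a*, a Diamond-Blackfan anaemia gene, had 147, 210, 252 and 234 CPM in quiescent and 73.2 and 91.5 CPM in activated WT libraries. Its log2 fold change was -1.36 (SE 0.28, adjusted p = 0.000967) in WT and -1.32 (SE 0.28, adjusted p = 0.00105) in KO cells by edgeR, with no overlap between states. *Rpl9*, *Rpl7*, *Rpl17* and *Rpl27a* were lower in both genotypes as well, between -1.06 and -0.69. In WT cells the falls of *Rpl17* and *Rpl27a* did not pass without activated library 2. The fall of *Rpl9* did not pass without WT library 2 of the activated group (adjusted p = 0.136 by edgeR) nor that of *Rpl7* without either activated WT library (0.101 and 0.0835). In KO cells neither passed without activated library 2 (0.207 and 0.177).

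*Rpl13a*, *Rpl29* and *Rpl41* rose in both genotypes. *Rpl13a*, which also acts in a complex that blocks translation of inflammatory mRNAs, had 40.8, 38.0, 43.4 and 50.7 CPM in quiescent and 92.5 and 128 CPM in activated WT libraries (log2 fold change 1.35, SE 0.24). In KO cells its fold change was 0.98 (SE 0.24), and without KO library 1 it did not pass (0.76, adjusted p = 0.126 by edgeR). *Rpl41* has the shortest coding sequence of the members, 78 bases, printed here whole because it is short and has 3 copies of at least 98% identity.
*Rpl41* (GRCm38 chromosome 10, 128548114 to 128549305, - strand): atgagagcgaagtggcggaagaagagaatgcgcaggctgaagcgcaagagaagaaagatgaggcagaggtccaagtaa
Its log2 fold change was 0.78 (SE 0.25) in WT and 0.97 (SE 0.25) in KO cells, and *Rpl29* had 0.97 (SE 0.27) and 1.00 (SE 0.26). In WT cells *Rpl29* did not pass without activated library 2 (adjusted p = 0.0613 by edgeR), and *Rpl41* did not without quiescent library 1 or either activated library (0.0576 to 0.145). In KO cells neither passed without activated library 1 (0.173 and 0.136).

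None of the stalk genes passed after culture. *Rplp0*, *Rplp1* and *Rplp2* had log2 fold changes of 0.31, 0.37 and 0.12 in WT and 0.47, 0.57 and 0.31 in KO cells, with SE of 0.24 to 0.27. The large subunit genes *Rpl3*, *Rpl4*, *Rpl5* and *Rpl8* had values of -0.40 to -0.15 in WT and -0.31 to -0.04 in KO cells and did not pass.

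For several members the direction depended on where copies were counted. *Rpl24* fell by 3.03 on the log2 scale in WT cells (SE 0.68, adjusted p = 0.00210 by edgeR), on 45 to 250 counts in quiescent and 7 and 1 in activated libraries. With its copies added the value was 0.48 (adjusted p = 0.297). *Rpl11* had -0.52 and -0.21 in WT and KO cells without a call, and with its copies added 0.55 (adjusted p = 0.0988) and 0.82 (adjusted p = 0.0147 by edgeR). The median of all members in KO cells turned from -0.15 to 0.02 with copies added, and 5 of the 86 fold changes in WT and 14 in KO cells turned from negative to positive. The falls of *Rps28* in WT, *Rpl17* in KO and *Rpl27a* in both genotypes did not pass with copies added. *Rps2*, with 53 copies, moved only from 1.76 to 1.77 in WT cells.

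Among all 86 members *Rpl3l* had the largest rise. *Rpl3l*, 74.4% identical to *Rpl3* over its coding sequence, is known as a paralog used in heart and mature skeletal muscle fibres. It had 3.50, 2.91, 2.90 and 2.99 CPM in quiescent WT libraries and 24.8 and 66.1 CPM in activated WT libraries. In KO cells it had 2.56, 2.87, 2.12 and 3.35 CPM before and 30.6 and 66.8 CPM after culture. All activated libraries lay above all quiescent libraries. The log2 fold change was 3.86 (SE 0.37, adjusted p = 3.08e-07) in WT and 4.16 (SE 0.37, adjusted p = 1.13e-07) in KO cells by edgeR. *Rpl3* did not pass in either genotype (-0.22 and -0.04, SE 0.25 each). The muscle fibre genes of the fixed list moved with *Rpl3l*, with a summed level of 318 to 1010 CPM in quiescent and 8401 to 19780 CPM in activated libraries, 0 of the 10 genes at 0, and log2 fold changes of 2.98 to 5.76 in WT cells. Their part in the value of *Rpl3l* was not tested.

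The remaining paralogs differed from one another. *Rps27l* rose from 4.70, 6.39, 4.30 and 3.85 CPM to 16.0 and 13.6 CPM in WT cells (log2 fold change 1.63, SE 0.40, adjusted p = 0.00426 by edgeR) and by 1.23 (SE 0.40, adjusted p = 0.0243) in KO cells, whereas *Rps27* fell in WT cells (-0.75, SE 0.26) and did not pass in KO cells (-0.45, SE 0.25). In WT cells *Rps27* did not pass without quiescent library 2, 3 or 4 or either activated library (adjusted p of 0.0526 to 0.308 by edgeR), nor *Rps27l* in KO cells without activated library 1 (0.0668) or 2 (0.217). *Rpl22l1* fell from 67.9, 70.5, 93.0 and 85.5 CPM to 27.5 and 22.3 CPM in WT cells (log2 fold change -1.66, SE 0.32), and *Rpl22* fell with it (-1.23, SE 0.30). In KO cells they had -0.77 and -0.72 and did not pass (adjusted p = 0.0561 and 0.0602 by edgeR), but without activated KO library 2 both passed (-1.37 and -1.28), as they did without quiescent KO library 1 (-0.90 and -0.80). *Rpl36al* and *Rpl39l* did not pass in either genotype. *Rps27rt* had 0.59 (SE 0.56) in WT cells and rose by 3.30 (SE 0.51) in KO cells, where it did not pass without activated library 2 (1.09, adjusted p = 0.145 by edgeR).

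**Figure D5:**
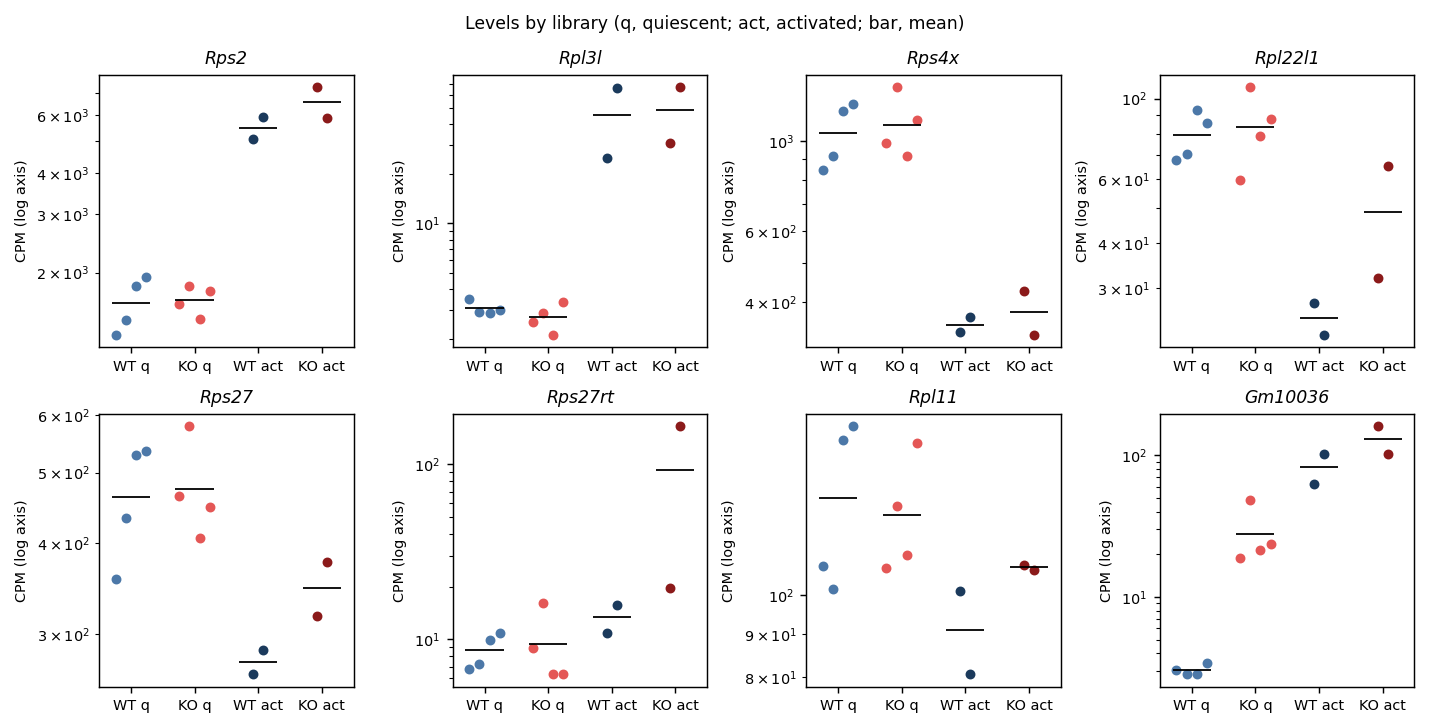
CPM by library on log axes for *Rps2*, *Rpl3l*, *Rps4x*, *Rpl22l1*, *Rps27*, *Rps27rt*, *Rpl11* and the *Rpl11* pseudogene *Gm10036*. Points are libraries, bars are group means, q is quiescent and act is activated. *Rps2* and *Rpl3l* rise and *Rps4x* falls in both genotypes, 1 activated KO library of *Rps27rt* stands at 165 CPM, and *Gm10036* separates the quiescent genotypes while *Rpl11* does not.

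Of the 3 genes that match the name pattern without being a subunit, *Rps19bp1* and *Rpl7l1* rose. *Rps19bp1*, also called AROS, binds RPS19 and acts in the nucleolus in the assembly of the small subunit. It had 12, 12.4, 24.3 and 30.6 CPM in quiescent and 94.3 and 92.0 CPM in activated WT libraries, and 24.7, 21.5, 20.1 and 32.5 CPM before and 135 and 79.9 CPM after culture in KO cells. The states did not overlap, and the log2 fold change was 2.23 (SE 0.34, adjusted p = 4.80e-05) in WT and 2.12 (SE 0.34, adjusted p = 7.07e-05) in KO cells by edgeR. *Rpl7l1*, a nucleolar relative of *Rpl7* (62.6% identical coding sequence), rose by 1.18 (SE 0.26) in WT and 1.14 (SE 0.26) in KO cells, while *Rpl7* fell by 1.05 and 1.00. The rise of *Rpl7l1* in KO cells did not pass without activated library 1 (adjusted p = 0.0538 by edgeR). *Rps23rg1* was at 0 in all 4 activated libraries and at or under 0.993 CPM in quiescent ones.

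Of 8 dedicated chaperones of ribosomal proteins, *Pdcd2* was at 0 in every library on the gene entry used here. Whether its reads were assigned elsewhere was not tested. Of the 7 tested, 5 rose in WT and 6 in KO cells and 0 fell. Among all genes tested, 11.5% and 13.3% rose and 18.3% and 20.4% fell. *Grwd1*, the chaperone of RPL3, had a log2 fold change of 1.57 (adjusted p = 0.00147) in WT and 1.41 in KO cells, and *Heatr3*, which serves RPL5 and RPL11, had 1.48 and 1.51. *Bccip*, which binds RPL23, had 1.21 and 1.19, and *Tsr2*, the partner of RPS26, had 0.94 and 1.08, whereas *Rps26* itself was at -0.52 (not called) and -0.86. The list's median was 0.94 in WT and 1.08 in KO cells, beside -0.92 and -0.96 for all genes tested. For the 1541 genes with an average of at least 100 CPM the medians were -0.52 and -0.54. *Nap1l1* stands both here and in the next list.

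Of 23 genes with other TOP mRNAs, 3 rose and 4 fell in WT and 4 rose and 3 fell in KO cells, with medians of -0.28 and -0.15. The shares called were near those of all genes tested (29.8% in WT and 33.7% in KO cells). *Tpt1*, a classic TOP mRNA, fell by 1.44 and 1.26 on the log2 scale, and *Eef2*, the translocation factor, had -0.80 (adjusted p = 0.0316 by edgeR) in WT and -0.68 (adjusted p = 0.0552) in KO cells. *Eif4b*, an initiation factor, rose by 0.90 and 1.10. Of the components that the name rule leaves out, *Fau* (-0.25 and -0.15) and *Rack1* (-0.62 and -0.57) did not pass.

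Of 18 genes of mTORC1 and of TOP mRNA control, 7 rose and 4 fell in WT and 7 rose and 2 fell in KO cells, with medians of 0.32 and 0.11. Of all genes tested, 11.5% rose and 18.3% fell in WT and 13.3% rose and 20.4% fell in KO cells. *Larp1*, whose product binds TOP mRNAs, rose by 2.00 and 2.03, and *Eif4ebp1*, an inhibitor of cap-dependent initiation under mTORC1, rose by 2.05 and 2.37. *Rptor*, the mTORC1 scaffold, rose by 1.42 and 1.19. *Mtor* did not pass (-0.07 and -0.06), and *Myc*, a regulator of ribosomal protein transcription, fell by 1.42 and 1.22. In the comparisons of genotype 0 genes of these 3 lists were called in either state by edgeR.

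Quiescent libraries also held markers of other cells. Of these genes 5 of 6 (smooth muscle and pericyte) and 4 of 7 (blood cell) fell with culture in each genotype. Fewer endothelial genes fell, 3 (WT) and 2 (KO) of 7, and 3 of 7 fibroadipogenic genes fell in each genotype while *Pdgfra* rose in KO cells. Over all genes tested, 18.3% fell in WT and 20.4% in KO cells, and 13.3% rose in KO cells. Among the 1541 genes with an average of at least 100 CPM, 41.5% and 42.7% fell. Summed levels were 1437 to 2631 CPM for 6 smooth muscle and pericyte genes, 261 to 1172 CPM for 7 endothelial genes, 344 to 3260 CPM for 7 fibroadipogenic genes and 97.6 to 415 CPM for 7 blood cell genes, with 0 genes of each list at 0 in every library of a quiescent group. In activated libraries they were 181 to 343, 97.2 to 678, 275 to 744 and 80.1 to 132 CPM, with 1 blood cell gene at 0 in WT. The satellite cell markers summed to 4671 to 8155 CPM in quiescent and 2307 to 3517 CPM in activated libraries. The part of these cells in the changes of ribosomal protein genes between states was not tested.

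The deposited FPKM, 1 value per gene and group, lay within the range of the library values computed from the counts for all 87 genes in both quiescent groups, for 69 in activated WT and for 79 in activated KO cells. The median ratio of the deposited to the computed group value was 0.970 to 1.02.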

How the data were processed

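RNA (labelled polyA) of sorted Pax7-ZsGreen+ cells was sequenced in 12 libraries. Per the labels and methods, the authors trimmed reads with Trim Galore 0.6.0, mapped them to GRCm38 with STAR 2.7.2a and used Rsubread with GENCODE genes for counting. The deposited counts are whole reads per gene without normalization, and the deposited FPKM are the authors' values, 1 per gene and group. How multi-mapped reads and strand were treated is not given in the sources used here. Library totals were 3172164 to 23717013 counts, and the activated libraries are the less precise.

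Groups were taken from the sample labels. Genes were filtered by filterByExpr, scaled by TMM and fitted in 1 model of 4 groups by edgeR 4.0.16 (R 4.3.3), with its two-sided quasi-likelihood test, and p-values were adjusted over 25771 genes by the Benjamini-Hochberg method. A gene was called at an adjusted p under 0.05. DESeq2 1.42.0, other scalings and filters, the replicate block and left-out libraries were alternatives. The pipeline was run on simulated counts with changes far larger than the median genotype differences of the members. That run does not bear on small differences. Copies were matched by blastn 2.17.0 (90% identity or more, aligned over 80% or more of the copy). Gene models are mouse GENCODE release M21 (55141 of 55401 identifiers matched), whereas the authors counted on M25, which can shift exon lengths and pseudogene matches, and start sites RefSeq on GRCm38.p6. Protein sequences were not used here, and single results of 2 genes are not reported here.

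Members, lists and tests were chosen with earlier results of these data known. Genes named by rule are the 5 largest changes each way among members called in both genotypes, the 5 highest and 5 lowest per length, paralog pairs, X-linked members, a fixed set of subunits, members that are no subunit, *Gm10036* and the pseudogenes with most counts. Other members and pseudogenes named, such as *Rpl24*, *Rpl23a*, *Rpl29*, *Rpl41* and the calls in 1 genotype, and the *Rps2* share were chosen after values were seen. Same-numbered quiescent WT and KO libraries deviated together with correlations of 0.37, 0.15, -0.48 and 0.73, so replicate numbers were not taken as pairs.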

Additional observations from a re-analysis of the deposited data

Results flagged for a closer look

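In groups of 4 libraries, 4 of 74 values checked had 1 library apart from the others by Dixon's criterion, and chance alone flags about 1 group in 20. The summed share of the 87 genes was 5.10% in quiescent KO library 2 and 3.64% to 3.85% in the other quiescent KO libraries. *Rpl3l* stood at 3.50 CPM in quiescent WT library 1, against 2.90 to 2.99 CPM in the others. *Rps23rg1* stood at 0.993 CPM in quiescent WT library 2, against 0.263 to 0.313 CPM. *Rpl10l* stood at 0.417 CPM in quiescent KO library 1 and at 0 in the other 3, at counts too low for a test.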

How the results depend on the processing

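In quiescent cells 0 members were called for genotype under all 20 alternatives. In activated cells 0 were called under the alternatives except that *Rps27rt* made the count 1 without a filter on low counts, by DESeq2 on all libraries and without KO library 1, so leaving out 1 library gave 0 to 1. For the difference of the genotype effects the count was likewise 1 without a filter, and 0 to 1 with 1 library left out. Between states the count was 31 in WT and 27 in KO cells. It was 18 and 13 with a log2 fold change over 1 and a mean count over 10 required as well, and 12 to 31 in WT and 13 to 28 in KO cells with 1 library left out. With pseudogene counts added, the fold changes of 5 members in WT and 14 in KO cells turned from negative to positive. In 2 of these a call was gained or lost, at 0.48 for *Rpl24* in WT and 0.82 for *Rpl11* in KO cells, and the median of the members in KO cells turned to 0.02. Among single genes, 91 of 946 values in WT and 57 of 947 in KO cells no longer passed, 59 and 36 of them with 1 library left out. *Rps2*, *Rpl3l*, *Rps19bp1*, *Rps4x* and *Rpl35a* passed under every alternative in both genotypes, and *Gm10036* in quiescent cells kept a log2 fold change of 2.82 to 3.35.

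With the replicate number as a block the calls for genotype stayed at 0 in each state and for the difference, and those between states were 30 in WT (12 higher, 18 lower) and 31 in KO cells (16 higher, 15 lower). Same-numbered activated libraries had a correlation of -0.14, and with crossed numbers, chosen after this was seen, the genotype calls were also 0. With 2 activated libraries a group of 3172164 to 5427280 counts each, the interval of a genotype difference lay within a 2-fold change for 72 of the 86 members.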
